A study of Mus musculus with 4 samples.

Results

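The miRNAs described here are the mouse miRNAs numbered miR-6896 to miR-7093, a run of late-numbered entries known largely as mirtrons. They were taken from the deposited tables by number alone, either arm, so no measured value chose them. The range holds 203 of the 1091 listed mature miRNAs, of which 101 are 5p arms and 102 are 3p arms, from 145 hairpins. A total of 144 of the 198 numbers in the range had a listed miRNA, and 58 hairpins had both arms listed.

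Most miRNAs are cut from long primary transcripts by the nuclear enzyme Drosha and then by Dicer. A mirtron instead is a hairpin released from a spliced intron: the splicing machinery sets an end of the hairpin, and Dicer cuts the loop. In tailed mirtrons the hairpin sits at a single end of a longer intron and the rest is trimmed away. Their 5p arms are often rich in G and their 3p arms in C and U, as the polypyrimidine tract before an acceptor site is, and an intron as a rule starts with GU and ends with AG.

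Small RNA was sequenced from cultured CD4+ T cells of C57BL/6 mice, with 4 groups of 1 library each. The groups were Cbl-b-/- cells stimulated with an antibody to CD3 (anti-CD3) for 48 h, WT cells stimulated in the same way, unstimulated Cbl-b-/- cells and unstimulated WT cells, which the labels call naive. Cbl-b is a ubiquitin ligase that restrains T cell receptor signalling; the sources used here do not say how the allele was made, nor whether a library came from a single mouse or a pool. There is no replicate of any group, so a ratio of 2 libraries carries no p-value, and every interval below covers counting error only.

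The libraries held 11561693 counted miRNA reads in stimulated Cbl-b-/- cells, 13074598 in stimulated WT cells, 14017277 in unstimulated Cbl-b-/- cells and 15436447 in unstimulated WT cells. At these depths 1 read stood for 0.0648 to 0.0865 counts per 1000000 counted reads (CPM). The 5 T cell miRNAs (miR-142a-5p, miR-150-5p, miR-181a-5p, miR-146a-5p and miR-155-5p) summed to 196000 and 185743 CPM in stimulated Cbl-b-/- and WT cells, against 353741 and 365401 CPM in the unstimulated cells. Of these, miR-155-5p alone went the other way, with 51621 and 25337 CPM in stimulated Cbl-b-/- and WT cells. In the unstimulated cells it had 3112 and 2246 CPM. Of the 8 lists for other cells, the erythroid list (4 miRNAs) summed to 911, 389, 1643 and 1403 CPM in stimulated Cbl-b-/-, stimulated WT, unstimulated Cbl-b-/- and unstimulated WT cells. Its miR-486a-5p and miR-486b-5p had nearly equal levels in each library (406 and 405 CPM in stimulated Cbl-b-/- cells). Whether the same reads were counted for both was not tested. The epithelial list (7) ranged over 548 to 1082 CPM, myeloid miR-223-3p over 68.2 to 464 CPM and the stromal list (4) over 42.7 to 166 CPM, each lower in the stimulated libraries. Endothelial miR-126a-3p (10.7 to 43.1 CPM) and neural miR-9-5p (2.35 to 11.6 CPM) were higher in them. So was miR-200c-3p of the epithelial list, against its sum, with 31.7 and 38.5 CPM in stimulated Cbl-b-/- and WT cells. In the unstimulated cells it had 18.0 and 20.1 CPM. Liver miR-122-5p had 0.0765 to 0.583 CPM and muscle miR-133a-3p 0.0648 to 0.229 CPM, and miR-205-5p was at 0 in both stimulated libraries. These levels moved with stimulation, as did the results below, and their part in those results was not tested. The RNA of the targeted gene is not measured by such libraries, so the genotype labels were not checked.

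RefSeq gave a mature sequence for 181 of the 203 miRNAs (build GRCm38.p6). The most abundant ones are shown first, with the seed, bases 2 to 8 that pair with a target, in capitals. miR-6957-5p, also among the 10 most abundant, had no entry. The last 2 sequences belong to less abundant miRNAs that share a seed with an abundant one.
miR-7015-3p: uCUCACUGuccucugcacuag
miR-7033-5p: uCUCCAGGagucugaggggcagg
miR-6948-3p: uGUCCUUCcugucugaccaca
miR-7068-3p: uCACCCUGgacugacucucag
miR-7081-3p: uUCCCCUGguauccuccucaca
miR-6973a-3p: cACUCUAAcccuaccuacccau
miR-6996-5p: uGCACAGGacagagcacaguc
miR-6911-3p: uCAAUCACacucuguccacag
miR-6933-5p: uGGCGGCAgucaggauaccugu
miR-6992-3p: uCUCACUGaugaucauuugcag
miR-7023-3p: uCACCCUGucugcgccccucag

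The abundant 3p arms in this list end in ag or lie within 4 bases of the intron's last base, and several run in c and u. miR-7015-3p (chr4:120973259-120973279, minus strand) ends on the last base of an intron of Smap2, which encodes an Arf GTPase-activating protein. miR-7068-3p (chr8:72470016-72470036, minus strand) ends on the last base of an intron of Cherp, a nuclear factor of pre-mRNA processing, and miR-6911-3p (chr10:80278212-80278232, plus strand) does so in Dazap1, an RNA-binding protein gene. Other hosts have known roles in lymphocytes. miR-6973a-3p (chr17:35195024-35195045, plus strand) lies in Ltb, which encodes lymphotoxin beta, and ends 4 bases before the intron's end. miR-6996-5p (chr2:26470094-26470114, minus strand) lies in Notch1, the cell-surface receptor. miR-7081-3p (chr9:20914091-20914112, minus strand) lies 1 base from the end of an intron of Dnmt1, the maintenance DNA methyltransferase. miR-6948-3p (chr14:54643050-54643070, minus strand) lies 1 base from the end of an intron of Acin1, a splicing-linked protein. The remaining abundant 5p arms lie in Pom121, a nuclear pore gene (miR-7033-5p, chr5:135383783-135383805, minus strand), and in Pgs1, which makes a precursor of cardiolipin (miR-6933-5p, chr11:118002279-118002300, plus strand). The 172 seeds of the 181 sequences were nearly all different, with 9 seeds held by 2 miRNAs each, and no run of 14 or more bases was shared with another listed miRNA. Host messenger RNA was not analysed here.

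Whole hairpins show how the arms sit in the intron. The 4 below were chosen after the values were seen, and the capitals mark the annotated 5p and 3p arms. Mir7068 (chr8:72470016-72470089), Mir6974 (chr17:35204475-35204557) and Mir7058 (chr7:126367971-126368045), all on the minus strand, fill the whole of their introns of 74, 83 and 75 bases. Their hosts are Cherp, Lta, which encodes lymphotoxin alpha, and Lat, the adaptor that links the T cell receptor to its downstream enzymes. Mir7081 (chr9:20914090-20914164, minus strand) occupies the last 75 bases of a Dnmt1 intron of 1632 bases.
Mir7068: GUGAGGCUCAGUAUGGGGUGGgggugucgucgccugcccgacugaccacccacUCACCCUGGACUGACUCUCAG
Mir6974: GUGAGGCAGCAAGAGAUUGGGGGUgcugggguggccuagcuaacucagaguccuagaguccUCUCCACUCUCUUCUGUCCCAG
Mir7058: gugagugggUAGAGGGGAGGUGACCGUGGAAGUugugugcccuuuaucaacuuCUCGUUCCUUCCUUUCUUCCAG
Mir7081: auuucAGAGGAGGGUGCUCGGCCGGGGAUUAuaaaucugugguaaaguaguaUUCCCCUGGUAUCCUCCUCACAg
The hairpins that fill an intron begin with GU and end with AG, the splice-site letters, while Mir7081 has only the AG.

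Placement at an acceptor site was the rule across the range. All 131 hairpins with a RefSeq position overlapped introns of protein-coding genes, 129 hosts on 19 chromosomes, by the GENCODE annotation of GRCm38. With a tolerance of 2 bases, 115 of them (87.8%) ended at the acceptor end of the intron, 6 filled the intron and 3 began at the donor end. The other 7 lay inside the intron or ran across its edge. Among the 444 other listed hairpins with a position, 22 (4.95%) ended at the acceptor end only, 5 filled an intron and 191 overlapped no intron on their strand. Such placement was not particular to the range. Just above it in number, miR-7115-3p and miR-7116-3p ended on the last base of an intron, and miR-7094-3p and miR-7118-3p 1 base before it. The mirtrons miR-877-3p and miR-702-3p ended 1 and 2 bases before it. Other late-numbered miRNAs, miR-6546-3p and miR-7227-3p, ended 4864 and 20893 bases before it. The intron was chosen in the same way for both sets, the one whose ends lay nearest being preferred. Introns with a hairpin at the acceptor end had a median length of 500 bases, and for 33 of the 131 hairpins the intron had at most 120 bases. The annotation thus places most of these hairpins at the end of longer introns, the tailed form, and a description of the range as short-intron mirtrons fits a minority of it.

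The letters follow the placement. A total of 121 of the 131 hairpins (92.4%) ended in AG, compared with 42 of the 444 others (9.46%). Of 89 mature 3p arms with a sequence, 62 (69.7%) ended on the very last base of the intron, compared with 17 of 332 other listed 3p arms (5.12%), and 63 (70.8%) ended in AG, compared with 30 (9.04%). C and U made up a median of 72.2% of the 3p arms in the range and 54.5% of the others. The 92 5p arms had a median of 42.9% G, against 27.6% in the 302 others, but only 6 of them began with GU. These are counts of annotated sequences and carry no test.

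**Figure D1:**
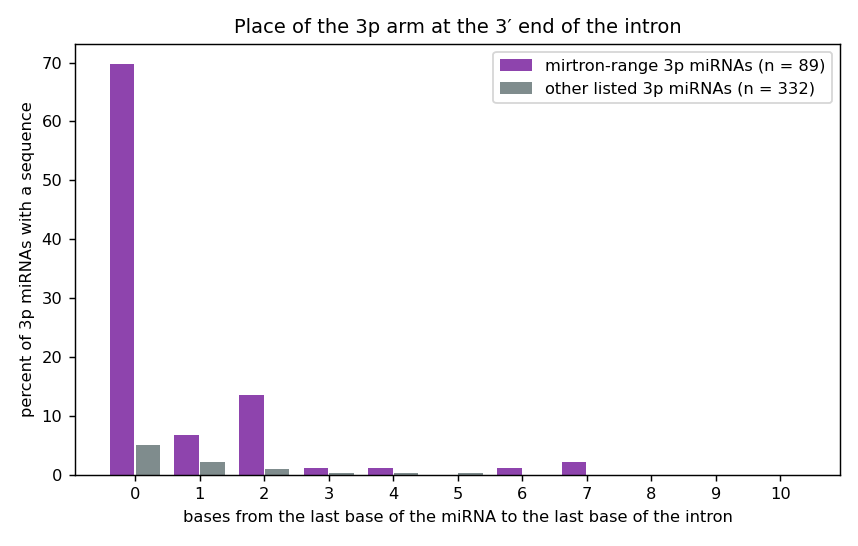
Percent of 3p miRNAs with a RefSeq sequence (vertical axis) by the number of bases between the last base of the miRNA and the last base of its intron (horizontal axis, 0 to 10 shown). In the mirtron range 69.7% of 89 end on the intron's last base; of the 332 other listed 3p miRNAs 5.12% do.

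Every miRNA of the range was scarce. Together the 203 miRNAs held 3037 reads in the 4 libraries, from 2 to 193 reads for a miRNA with a median of 6, and 133 had under 10. The 10 with most reads held 34.7% of these reads, 39 had at least 20 and 4 had at least 100. The median over the range of a miRNA's mean level was 0.118 CPM, compared with 1.02 CPM over all listed miRNAs, and none exceeded 5.21 CPM in a library. Reads were found in every library for 69 miRNAs.

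The most abundant, miR-7015-3p, was higher in unstimulated cells. It had 23 and 18 reads (1.99 and 1.38 CPM) in stimulated Cbl-b-/- and WT cells, against 73 and 79 reads (5.21 and 5.12 CPM) in unstimulated Cbl-b-/- and WT cells. The next, miR-7033-5p, was nearly level, with 47 and 35 reads (4.07 and 2.68 CPM) in stimulated Cbl-b-/- and WT cells, against 37 and 34 reads (2.64 and 2.20 CPM) in the unstimulated cells. miR-6973a-3p and miR-6911-3p, the arms from Ltb and Dazap1, also varied little, at 1.49 to 1.91 CPM and 0.907 to 1.30 CPM over the 4 libraries, and their 4 ratios all had intervals that included 0. miR-6948-3p and miR-7068-3p, by contrast, had their higher levels in the stimulated libraries.

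**Figure D2:**
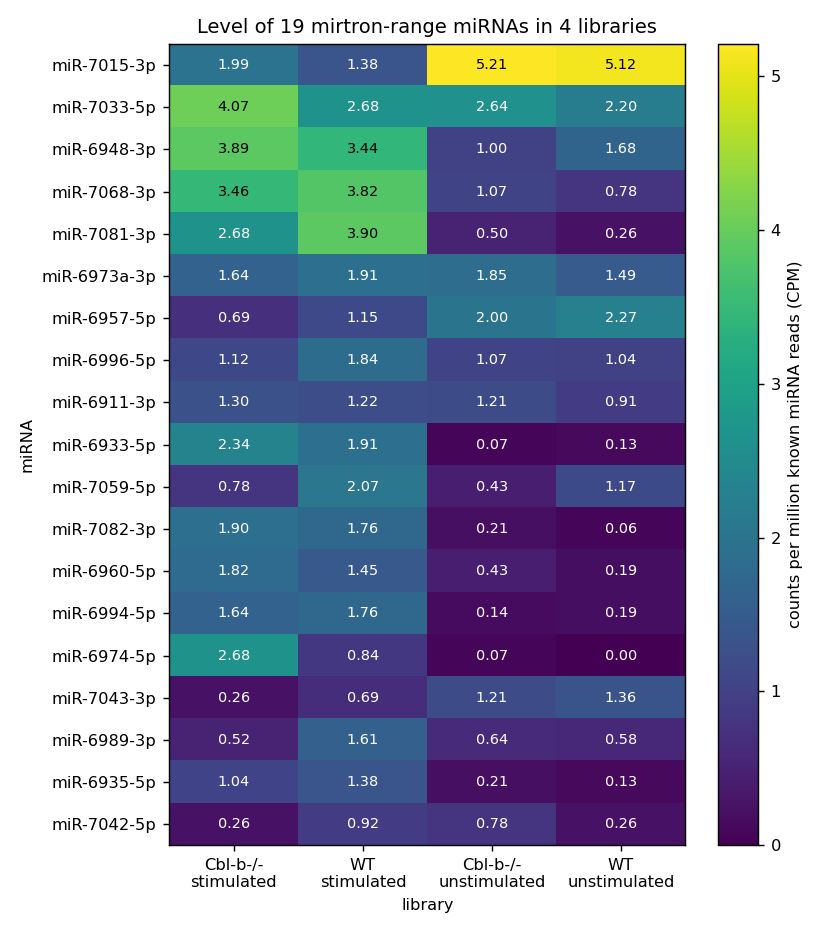
Level in CPM of the 19 named miRNAs (rows, ordered by mean level) in the 4 libraries (columns). Most of the lower rows are brighter in the stimulated columns; miR-7015-3p, miR-6957-5p and miR-7043-3p are brighter in the unstimulated ones.

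Summed over the range, the level was higher in stimulated cells of either genotype. The 203 miRNAs summed to 861 reads or 74.5 CPM (95% interval 69.6 to 79.6) in stimulated Cbl-b-/- cells, against 541 reads or 38.6 CPM (35.4 to 42.0) in unstimulated Cbl-b-/- cells. In WT cells they summed to 1061 reads or 81.1 CPM (76.3 to 86.2) when stimulated, against 574 reads or 37.2 CPM (34.2 to 40.4) when unstimulated. The log2 ratio was 0.95 in Cbl-b-/- cells (0.79 to 1.11, 1.93-fold) and 1.13 in WT cells (0.98 to 1.27, 2.18-fold). More of the miRNAs also had a read, 158 and 176 in stimulated Cbl-b-/- and WT cells, against 120 and 119 in the unstimulated cells. Over all 1091 listed miRNAs the same counts were 975 and 991, against 919 and 899. The size of this difference depends on the scaling, because TMM factors, which assume that most miRNAs do not change, shift every stimulation ratio by -0.60 in Cbl-b-/- and -0.61 in WT cells. With TMM factors the summed log2 ratio was 0.35 in Cbl-b-/- and 0.51 in WT cells, and it stayed above 0 under each scaling tried.

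Both arms took part. The 5p arms summed to 33.8 and 37.5 CPM in stimulated Cbl-b-/- and WT cells, against 15.8 and 15.5 CPM in the unstimulated cells, and the 3p arms to 40.7 and 43.7 CPM against 22.8 and 21.7 CPM. The 5p log2 ratio was 1.09 in Cbl-b-/- and 1.28 in WT cells, with intervals that began at 0.85 and 1.05. That of the 3p arms was 0.84 and 1.01, with intervals that ended at 1.05 and 1.21, so the intervals of the arms overlapped in each genotype. Without miR-7015-3p the summed 3p log2 ratio was 1.14 in Cbl-b-/- and 1.35 in WT cells.

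**Figure D3:**
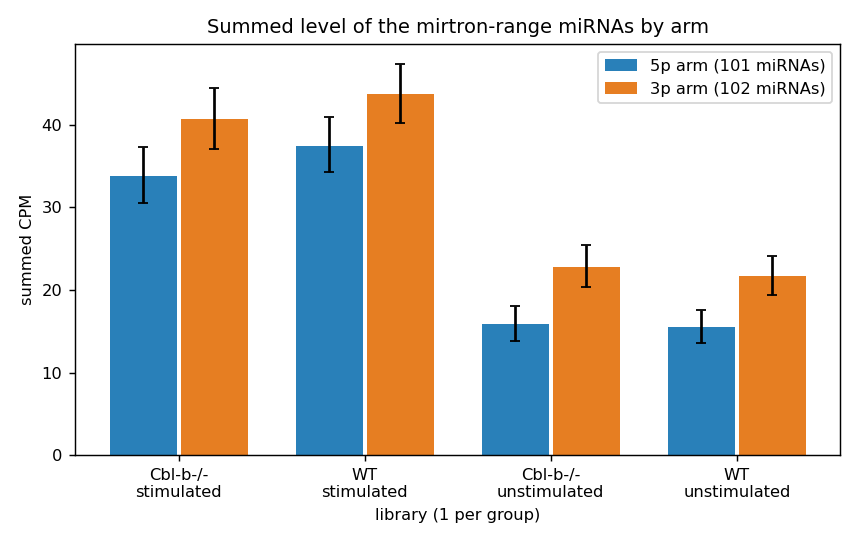
Summed CPM of the 101 5p and 102 3p miRNAs of the range in each library, with exact 95% Poisson intervals of the counts as error bars. Both bars are higher in the stimulated libraries, and the genotypes lie close together within each state.

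The direction was shared by many of the individual miRNAs. In the Cbl-b-/- pair the stimulated-over-unstimulated CPM ratio was above 1 for 137 and below 1 for 47 of the 184 miRNAs with a read (74.5% above; 62.1% over all listed miRNAs). In the WT pair it was above 1 for 156 and below 1 for 39 of 195 (80.0% above, 66.4% over all listed miRNAs). Other late-numbered miRNAs, the 147 numbered 5000 or higher outside the range, leaned the same way. Their ratio was above 1 for 97 and below 1 for 42 in Cbl-b-/- cells, and for 109 and 34 in WT cells. With TMM factors the shares of the range were 60.3% in Cbl-b-/- (50.3% over all listed) and 66.2% in WT cells (53.1%). Most of these ratios rest on a few reads. Sums by intron length cover only miRNAs whose hairpin had a RefSeq position. Hairpins flush with the end of an intron of at most 120 bases (46 miRNAs) had a summed log2 ratio of 1.23 in Cbl-b-/- and 1.31 in WT cells. Those in longer introns (120 miRNAs) had 1.09 and 1.38. miR-7015-3p and miR-6948-3p, in introns of 1127 and 675 bases, had no hairpin position and are left out. Both are among the most abundant, and miR-7015-3p was lower in stimulated cells. Whether short and long introns are alike with them included was not tested.

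For single miRNAs a rule of size was used: a ratio of at least 2-fold, at least 20 reads in the pair, and a log2 ratio whose interval leaves out 0. Only 15 miRNAs of the range reached 20 reads in the Cbl-b-/- pair and 20 in the WT pair. Of the 15, 8 were higher in stimulated Cbl-b-/- cells past the rule (39.0% of all 585 listed miRNAs with 20 reads were) and 3 were lower (19.5%). Of the 20 in WT cells, 11 were higher (41.7% of 585) and 1 was lower (16.1%). With TMM factors or DESeq2 size factors the split in WT cells was 7 higher and 3 lower. The shares over all listed miRNAs given here are by library sums, and those under the 2 factors were not counted. The median log2 ratio of those with 20 reads was 1.69 in Cbl-b-/- cells (0.51 over all listed miRNAs) and 1.18 in WT cells (0.64). For the other late-numbered miRNAs with 20 reads the median was 1.29 in Cbl-b-/- cells and 1.56 in WT cells.

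Past the rule in both genotypes, 7 miRNAs were higher in stimulated cells and miR-7015-3p was lower, and none went opposite ways. This overlap was not counted over all listed miRNAs. Of those with 20 reads, 39.0% were higher in the Cbl-b-/- pair and 41.7% in the WT pair, so the overlap is not shown to be particular to the range. miR-6933-5p, from Pgs1, had 27 and 25 reads in stimulated Cbl-b-/- and WT cells, against 1 and 2 in the unstimulated cells (log2 ratio 5.03, 2.43 to 10.39, in Cbl-b-/-; 3.88, 1.88 to 7.01, in WT). Nearly all its reads thus came from stimulated cells. miR-7082-3p, from Raver1, a co-regulator of splicing, had 22 and 23 reads against 3 and 1, and miR-6994-5p, from the mRNA decay gene Patl1, had 19 and 23 against 2 and 3. In both the stimulated and unstimulated counts lay far apart. miR-7081-3p, whose hairpin in Dnmt1 is printed above, had 31 and 51 reads in stimulated Cbl-b-/- and WT cells, against 7 and 4 in the unstimulated cells, 5.37-fold and 15.1-fold higher. miR-6960-5p, from Troap, a gene of the mitotic spindle, had 21 and 19 reads against 6 and 3.

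The other 2 higher in both genotypes had at least 12 reads in every library. miR-7068-3p, the arm that closes the Cherp intron, had 40 and 50 reads in stimulated Cbl-b-/- and WT cells, against 15 and 12 in the unstimulated cells (3.46 and 3.82 CPM against 1.07 and 0.777 CPM; 3.23-fold and 4.92-fold). miR-7023-3p, which has the same seed and lies in Pik3cd, the gene of a lymphocyte PI3-kinase, had 4 and 9 reads against 2 and 3, too few for the rule. miR-6948-3p, from Acin1, had 45 and 45 reads in stimulated Cbl-b-/- and WT cells, against 14 and 26 in the unstimulated cells. Its WT ratio (2.04-fold) was under 2-fold with TMM factors, DESeq2 size factors and sums without the 10 most abundant miRNAs. Past the rule in WT cells alone were miR-6935-5p, miR-6989-3p, miR-7036b-5p and miR-6936-3p, and the last 3 were lost under TMM factors. None of these reached 20 reads in the Cbl-b-/- pair, so the rule could make no call there. miR-6935-5p had 12 reads in stimulated and 3 in unstimulated Cbl-b-/- cells (4.85-fold, log2 interval 0.39 to 4.74). Whether the genotypes differ in these was not shown by the interval of the difference, which included 0 for each.

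miR-6974-5p, the 5p arm that opens the Lta intron, was past the rule in Cbl-b-/- cells, with 31 reads when stimulated, against 1 when unstimulated (37.6-fold; log2 5.23, 2.65 to 10.58). In WT cells it had 11 reads when stimulated, against 0 when unstimulated, at least 4.33-fold higher with the 0 taken as 3 counts in that library, but under the minimum of 20 reads. Its partner miR-6974-3p had 5 and 1 reads in stimulated Cbl-b-/- and WT cells, and none in the unstimulated cells. Reads of this hairpin thus came almost wholly from stimulated cells.

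Fewer miRNAs were lower in stimulated cells. miR-7015-3p was 0.382-fold the unstimulated level in Cbl-b-/- cells (log2 -1.39, -2.13 to -0.70) and 0.269-fold in WT cells (log2 -1.89, -2.72 to -1.14). miR-6957-5p had 8 and 15 reads in stimulated Cbl-b-/- and WT cells, against 28 and 35 in the unstimulated cells. miR-7043-3p, from Rassf4, a gene of a Ras-association domain protein, had 3 and 9 reads against 17 and 21. By library sums both were lower past the rule in Cbl-b-/- cells alone (log2 -1.53 and -2.22). In WT cells both stood at -0.98, under 2-fold, and the interval left out 0 for miR-6957-5p (-1.96 to -0.07) but not for miR-7043-3p (-2.29 to 0.20). With TMM factors both passed in WT cells as well. The miRNA that shares the miR-7015-3p seed, miR-6992-3p, had 9 reads in all.

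**Figure D4:**
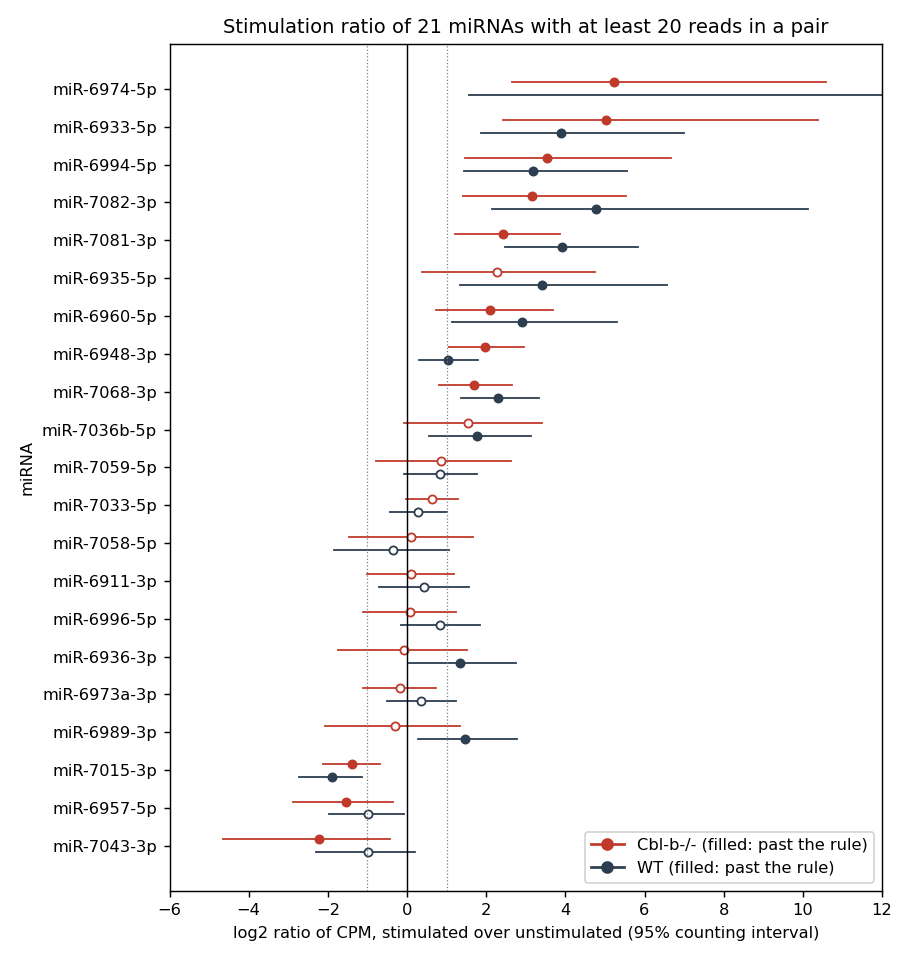
Log2 ratio of CPM, stimulated over unstimulated, of the 21 miRNAs with at least 20 reads in a pair, Cbl-b-/- above WT in each row, with exact 95% counting intervals (cut off at 12) and dotted lines at 2-fold. Filled points are past the rule; miR-6974-5p has no WT point because the unstimulated WT library had 0 reads.

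An additive edgeR quasi-likelihood fit of state and genotype over the 4 libraries, with TMM factors and Benjamini-Hochberg adjustment over 603 miRNAs, tested 20 of the range. It treats the genotypes as samples of a state, which they are not in the strict sense, and has 1 residual degree of freedom. By state, 8 of the 20 rose with stimulation at an adjusted p under 0.05 (35.2% of the 603 did) and 3 fell (33.7%). Those that rose were miR-6974-5p (log2 fold change 4.88, adjusted p = 0.00457 in edgeR), miR-6933-5p, miR-7082-3p, miR-7081-3p, miR-6994-5p, miR-7068-3p, miR-6935-5p and miR-6960-5p, whose adjusted p reached 0.0232. Those that fell were miR-7015-3p (log2 fold change -2.16, adjusted p = 0.00394 in edgeR), miR-6957-5p and miR-7043-3p. The 8 of 20 that rose are a share near that of all miRNAs tested. miR-6948-3p, past the rule of size in both genotypes, had a log2 fold change of 0.91 and an adjusted p of 0.0971 here.

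Loss of Cbl-b went with few differences in the range. The summed level was 74.5 CPM in stimulated Cbl-b-/- cells and 81.1 CPM in stimulated WT cells (log2 ratio -0.12, -0.26 to 0.01), and 38.6 CPM in unstimulated Cbl-b-/- cells and 37.2 CPM in unstimulated WT cells (0.05, -0.12 to 0.23). Each interval includes 0, and as far as counting error goes the bounds lie between -0.26 and 0.23. In stimulated cells 1 of 22 miRNAs with 20 reads was higher in Cbl-b-/- cells (8.29% of all 591 were) and 2 were lower (2.54%). In unstimulated cells none of 11 was higher (6.70% of 537) and 1 was lower (0.745%). By the additive edgeR fit no miRNA of the range differed by genotype at an adjusted p under 0.05 (1.82% of the 603 were higher and 0.166% lower); 2 had an unadjusted p under 0.05, the lowest adjusted p was 0.297, and the DESeq2 Wald test also gave 0, with 0 at an unadjusted p under 0.05.

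miR-7059-5p, from Cln3, a lysosomal membrane protein gene, was the miRNA lower in Cbl-b-/- cells in both states. It had 9 reads in Cbl-b-/- cells and 27 in WT cells when stimulated (0.778 and 2.07 CPM; log2 -1.41, -2.68 to -0.28). When unstimulated it had 6 reads in Cbl-b-/- cells and 18 in WT cells (0.428 and 1.17 CPM; log2 -1.45, -3.07 to -0.05). The Cbl-b-/- counts thus lay below the WT counts in each state, on few reads. In the authors' deposited tables it is the only miRNA of the range called in both states, with WT over Cbl-b-/- at 2.79 unstimulated (unadjusted p = 0.031) and 2.57 stimulated (unadjusted p = 0.027).

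The remaining genotype differences were in stimulated cells. miR-6974-5p was higher in Cbl-b-/- cells, with 31 reads in Cbl-b-/- cells and 11 in WT cells (3.19-fold; log2 1.67, 0.64 to 2.81). miR-6989-3p, from Map4k2, a kinase gene, was lower, with 6 reads in Cbl-b-/- cells and 21 in WT cells (log2 -1.63, -3.23 to -0.27). In unstimulated cells the same miRNA was even, with 9 reads in each genotype. The authors' deposited tables call 1 of the 52 differing miRNAs in unstimulated cells and 9 of the 78 in stimulated cells from this range. The genotype ratio was also compared between the states, stimulated minus unstimulated, with a limit of 1 in log2 and at least 20 reads in the 4 libraries. None of 39 miRNAs of the range was higher past that rule (3.37% of all 683 listed were) and 1, miR-7042-5p, was lower (2.93%), on 30 reads. Of the 9 called by the authors' deposited table in stimulated cells, miR-6904-3p, miR-6963-3p, miR-6984-5p, miR-6986-5p and miR-6990-3p had 0 reads in a stimulated library and 6 to 10 in the other, under the minimum of 20 reads used here.

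Within a hairpin, the choice of arm was often strong and did not follow a single side. Of 30 hairpins with both arms listed and at least 20 reads, the 3p share had an exact 95% interval above 50% in 12 and below 50% in 12. The 3p arm held 97.5% of 198 reads of miR-7015 (94.2% to 99.2%), 86.1% of 151 reads of miR-6948 (79.5% to 91.2%) and 97.5% of 120 reads of miR-7068 (92.9% to 99.5%). These are the 3 hairpins with both arms listed and at least 100 reads. Hairpins with a single listed arm are left out, such as miR-7033, whose 5p arm had 153 reads. The miR-6948 share was 93.8% in stimulated Cbl-b-/- cells and 80.4% in stimulated WT cells, against 82.4% and 86.7% in the unstimulated cells, with overlapping intervals. Over the range the 3p arms held 54.6% and 53.8% of reads in stimulated Cbl-b-/- and WT cells, against 59.0% and 58.4% in the unstimulated cells, and the intervals of the genotypes overlapped in each state. miR-7015-3p alone gave 23 and 18 of the 3p reads in stimulated Cbl-b-/- and WT cells. It gave 73 and 79 in the unstimulated cells, so this difference between states rests largely on it. miR-6974-5p and its partner were a case of the other kind: the 5p arm, which begins at the donor site, held most of the reads.

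**Figure D5:**
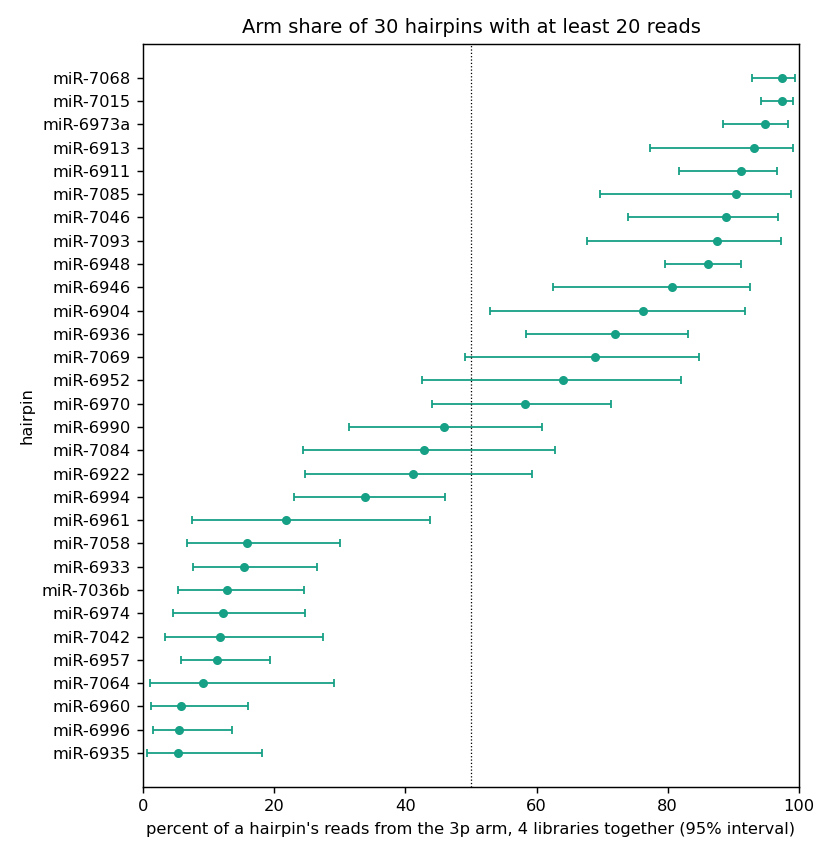
Percent of the reads of a hairpin that came from its 3p arm, over the 4 libraries together, for 30 hairpins with both arms listed and at least 20 reads, with exact 95% binomial intervals. The dotted line marks an even split; 12 intervals lie above it and 12 below.

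Other mirtrons gave a scale for these values. The listed arms of miR-702, miR-877 and miR-1224, mirtrons outside the range, summed to 102 and 120 CPM in stimulated Cbl-b-/- and WT cells, against 15.8 and 10.9 CPM in the unstimulated cells (log2 2.69 and 3.47). miR-877-5p alone had 63.6 and 84.1 CPM against 7.35 and 5.05 CPM, so this hairpin decides that sum. All 147 other miRNAs numbered 5000 or higher had summed log2 ratios of 2.29 in Cbl-b-/- and 2.02 in WT cells. The 483 other miRNAs with a mean level no higher than that of miR-7015-3p, a set defined after the values were seen, had 0.49 and 0.70, against 0.95 and 1.13 in the range. miR-320 and miR-484, made without Drosha but not from introns, had 0.48 and 0.65. The differences between these sums have no replicate check.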

How the data were processed

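Per the labels' protocols, total RNA went into small RNA libraries by an NEB kit. The authors deposited 2 tables, 1 for each state, with the same 1091 miRNAs; per the file headers they hold raw read counts beside a normalized score, which from the values is each count over a constant of its library. The deposited tables add a linear fold, its log2 and a p-value with no adjustment, all for WT over Cbl-b-/- as the values show; the sources used here do not name the test. The submitters' processing notes name cutadapt 1.7.1 and GRCm38.p5 and give no roles; the aligner, counter and miRNA release stay unnamed in the sources used here. A total of 25 miRNAs with at least 20 reads had counts identical to another, and reads that match several miRNAs may have been counted for each. In the range, miR-6946-3p had the same counts as miR-3058-3p, on 25 reads; it shares a run of at most 9 bases with any listed miRNA.

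Counts were divided by the library sum and multiplied by 1000000 (CPM). Log2 ratios have exact 95% Clopper-Pearson intervals of the counts of the 2 libraries, sums exact Poisson intervals; both cover counting error only, and reads without molecular identifiers are not independent molecules. A count of 0 stood at 3 counts. The difference between states added 0.5 to each count. The fits used edgeR 4.0.16 (filterByExpr by state) and DESeq2 1.42.0 (R 4.3.3), and the rule of size used Python 3.11.15 and scipy 1.17.1. Simulated data were made for the edgeR fit and the rule of size, not for DESeq2. The changed miRNAs in them had more reads than most of the range, so they do not speak for its low counts. Sequences came from RefSeq, introns from GENCODE M21. Named were the 10 miRNAs with the highest mean CPM, up to 5 each way per comparison past the rule of size, up to 10 past it in both genotypes, those past it for the difference between states, those at an adjusted p under 0.05, and hairpins with at least 100 reads; other names were picked with their values known. The alternatives were other scalings, fold limits, minimums and identical rows kept once. The range, lists and tests were chosen with earlier results of these data known.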

Additional observations from a re-analysis of the deposited data

Results flagged for a closer look

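miR-7042-5p had a genotype ratio that pointed in opposite directions in the 2 states. It had 3 reads in Cbl-b-/- cells and 12 in WT cells when stimulated (0.259 and 0.918 CPM), and 11 reads in Cbl-b-/- cells and 4 in WT cells when unstimulated (0.785 and 0.259 CPM). The log2 ratio of Cbl-b-/- over WT was -1.82 (-4.29 to 0.07) in stimulated cells and 1.60 (-0.16 to 3.70) in unstimulated cells, and the stimulated minus the unstimulated log2 ratio was -3.15 (-5.47 to -0.83, counting error only). With 1 library a group the difference was not tested. It was the only miRNA of the range past the rule of size for this difference, 1 of 39 with at least 20 reads in the 4 libraries, where 2.93% of all 683 listed miRNAs were lower and 3.37% higher past it; none of the 39 was higher.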

How the results depend on the processing

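No paired analysis was possible because each group has 1 library, and for the same reason no library could be left out. A minimum level of 10 CPM could not be used, since no miRNA of the range reaches it. No miRNA past the rule of size or an adjusted p under 0.05 changed direction. The summed genotype ratio in unstimulated cells, near 0 throughout, was 0.05 by library sums and -0.05 with DESeq2 size factors, and its 5p and 3p sums also went below 0 there (-0.07 and -0.04). Ratios that were not past the rule turned more often: above 1 with TMM factors were 111 of 184 miRNAs for Cbl-b-/- stimulation and 129 of 195 for WT stimulation, against 137 and 156 by library sums. With TMM factors the summed stimulation log2 ratio of the range was 0.35 in Cbl-b-/- and 0.51 in WT cells, with DESeq2 size factors 0.41 and 0.48. By arm, in the same order of genotypes, the 5p ratios were 0.49 and 0.66 with TMM factors and 0.56 and 0.63 with DESeq2 size factors, and the 3p ratios 0.24 and 0.40, and 0.30 and 0.36. Sums without the 10 most abundant miRNAs gave 0.74 for the range in Cbl-b-/- cells. Without miR-7015-3p the range gave 1.12 and 1.31, and its 3p arms 1.14 and 1.35, in Cbl-b-/- and WT cells.

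For WT stimulation, TMM factors, DESeq2 size factors and, for the higher ones, a limit of 4-fold each gave 7 miRNAs higher, and both factors gave 3 lower; the limit of 4-fold gave 0 lower. Lower in WT were 2 under sums without the 10 most abundant, the authors' implied totals (chosen after seeing the data) and a limit of 1.5-fold. A limit of 4-fold gave 1 lower for Cbl-b-/- stimulation, 0 lower for genotype in unstimulated cells, and 0 higher and 0 lower for genotype in stimulated cells. Without a minimum of reads, 34 were higher for WT stimulation, 23 for Cbl-b-/- stimulation and 1 for genotype in unstimulated cells. For genotype in stimulated cells 3 were higher and 6 lower, and for the difference between states 1 was higher. Under these changed scalings, limits and minimums the rule was not counted over all listed miRNAs. These counts thus have no share to stand beside and do not set the range apart. By state, the DESeq2 Wald test called 4 higher and 1 lower of 67 miRNAs of the range. Over all listed miRNAs it called 158 higher and 175 lower of 774, a larger share each way. Among single named miRNAs, 160 of 174 repeats kept their side of the threshold and 14 lost it; the cause was not tested. Most of the range had under 20 reads in a pair, and there the rule of size makes no call.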

Other observations

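Reads came from the stimulated libraries alone for 53 of the 203 and from the unstimulated libraries alone for 10 (26.1% and 4.93%), although the unstimulated libraries were the deeper ones. Over all 1091 listed miRNAs, most of them more abundant, the counts were 104 and 34 (9.53% and 3.12%). miR-6970-3p, named after its values were seen, had 9 reads in Cbl-b-/- cells and 19 in WT cells when stimulated, against 4 in Cbl-b-/- cells and 0 in WT cells when unstimulated. In WT cells it was at least 7.48-fold higher when stimulated, with the 0 taken as 3 counts in that library. miR-7064-5p had 12 reads in stimulated WT cells, against 0 in unstimulated WT cells, at least 4.72-fold higher on the same floor.

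The 9 miRNAs whose hairpins fill an intron, the classic form of a mirtron, summed to 104 and 82 reads in stimulated Cbl-b-/- and WT cells, against 27 and 26 in the unstimulated cells (log2 ratio 2.22, 1.60 to 2.89, in Cbl-b-/-; 1.90, 1.24 to 2.59, in WT). miR-7068-3p and miR-6974-5p are among them and hold most of these reads. The hairpin in Lat went another way: miR-7058-5p had 8 reads in each stimulated library, against 9 in Cbl-b-/- cells and 12 in WT cells when unstimulated, with intervals that included 0. These sets and names were chosen after the values were seen.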
